A study of Mus musculus with 14 samples.

Results

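The 9 genes described here, Mbnl1, Mbnl2, Ptbp1, Ptbp2, Qk, Celf1, Esrp2, Rbfox2 and Elavl1, encode RNA-binding regulators of tissue-specific splicing. They were taken by symbol from a table of transcript abundances, in which they hold 112 of 137767 transcripts and 9 of 54446 genes; the rule uses symbols and no measured value. Purified hepatocytes of C57BL/6 mice were profiled by poly(A)-selected RNA sequencing in 14 libraries and 6 groups. In the HKO model (srsf1f/f;albcre+/-), in which an albumin-driven Cre deletes floxed Srsf1 in hepatocytes, 2 libraries were made at postnatal day 10 (P10) and 2 at 1 month. Their controls (albcre+/-, without the floxed allele) also had 2 libraries at each age, so the Cre is shared and the floxed line is not. In the acute model (acHKO), srsf1f/f mice received an AAV8 vector with iCre under the hepatocyte promoter TBG at 8 weeks of age, and cells were taken at 10 weeks (3 libraries). The acute controls were srsf1f/f mice given AAV8-TBG-GFP (3 libraries), so in this model the floxed line is shared and iCre is set against GFP. Age, line and virus all differ between the 2 models and cannot be told apart. The labels do not say whether replicates came from separate mice, so p-values measure the spread between libraries.

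MBNL, PTB, QKI, CELF, ESRP and RBFOX proteins each bind short RNA motifs in and around alternative exons and raise or lower exon inclusion according to where they bind. Many of them regulate their own or each other's transcripts by splicing in or out exons that change the localisation of the protein or the reading frame. In liver, the switch from a fetal to an adult splicing programme after birth is known to involve ESRP2, and PTBP1 and CELF1 are known to decline as several tissues mature.

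Srsf1 itself averaged 26.7 ± 4.62 TPM (transcript abundance scaled to a fixed library total) in HKO and 45.0 ± 2.01 TPM in controls at P10 (SD, n = 2 each). At 1 month it averaged 8.46 ± 1.01 TPM in HKO and 21.6 ± 2.23 TPM in controls (n = 2 each). In the acute model it averaged 4.39 ± 0.849 TPM in acHKO and 26.2 ± 8.47 TPM in GFP hepatocytes (n = 3 each), with no overlap in any pair. Limma adjusted p-values were 0.0061 at 1 month, 2.77e-06 after acute deletion and 0.0545 at P10, where the change passed after rescaling (0.0094). Summed hepatocyte markers were at 30042 to 46498 TPM in the lowest group (acHKO) and 107174 to 112239 TPM in the highest (P10 controls). Markers of macrophages, endothelium and stellate cells were present at P10 (macrophage sum 204 to 290.5 TPM in HKO and 198 to 210.2 TPM in controls) and low at 1 month (24.8 to 65.5 TPM in HKO and 6.88 to 7.65 TPM in controls). Mitochondrially encoded transcripts took 33.5 to 42.9% of all TPM in acHKO and 11.8 to 16.1% in GFP libraries. They took 35.8 to 50.6% in HKO and 26.0 to 31.2% in controls at 1 month, and 27.5 to 33.9% in HKO and 28.3 to 31.7% in controls at P10. By its Xist level of 74.7 TPM, HKO replicate 2 at P10 came from a female, while the other 13 libraries had at most 0.0147 TPM. No read totals come with TPM, so depth is unknown. Fewer cells of a type and less RNA per cell cannot be told apart.

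Because TPM is a share of the library, changes are given as differences of log2(TPM + 1) minus the change of the median gene in that comparison. The SE and the limma adjusted p (Benjamini-Hochberg over all genes tested, threshold 0.05) come from the deposited TPM. They belong to the change before that subtraction, so the adjusted p does not test the relative change printed beside it. For Mbnl2 from P10 to 1 month in controls, the tested change was 0.51 and the relative change 0.94. The median gene changed by -0.43 from P10 to 1 month in controls, by -0.70 in HKO, by 0.25 for HKO against control at P10, by -0.0013 at 1 month and by -0.36 for acHKO against GFP. A second fit, called rescaled below, used libraries brought to a common scale by the median ratio over genes.

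In control hepatocytes at P10, Ptbp1 was the most abundant of the 9 genes at 42.6 ± 0.586 TPM, followed by Esrp2 at 24.9 ± 0.0965 TPM and Celf1 at 18.4 ± 0.489 TPM (SD, n = 2). Mbnl1, Qk and Elavl1 came next with ranges that touched or nearly touched, at 15.6 ± 0.567, 15.2 ± 1.09 and 15.0 ± 0.150 TPM, then Rbfox2 at 13.8 ± 0.0766 TPM. Ptbp2 (7.67 ± 0.170 TPM) and Mbnl2 (5.97 ± 0.356 TPM) were lowest. At 1 month the order in controls was Esrp2 (22.8 ± 5.26 TPM), Ptbp1 (19.4 ± 2.04 TPM), Mbnl1 (16.3 ± 1.68 TPM), Celf1 (14.2 ± 2.52 TPM), Elavl1 (10.5 ± 4.17 TPM), Mbnl2 (8.90 ± 0.384 TPM), Qk (8.21 ± 1.56 TPM), Ptbp2 (4.60 ± 0.227 TPM) and Rbfox2 (3.87 ± 1.09 TPM). Between neighbours in that order, the libraries of each pair overlapped, except for Ptbp1 and Mbnl1, which were narrowly apart, and Qk and Ptbp2, which were well apart. In the GFP group at 10 weeks, Mbnl2 stood at 24.0 ± 0.637 TPM (n = 3), level with Ptbp1 at 23.7 ± 4.93 TPM. Of the Mbnl2 value, 11.9 ± 0.128 TPM belonged to Mbnl2-205, a transcript with no coding frame. Ptbp2 and Rbfox2 were again lowest in GFP at 3.30 ± 0.861 and 3.65 ± 1.03 TPM. All 9 genes passed the filter of a mean of at least 1 TPM in every fit.

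**Figure D1:**
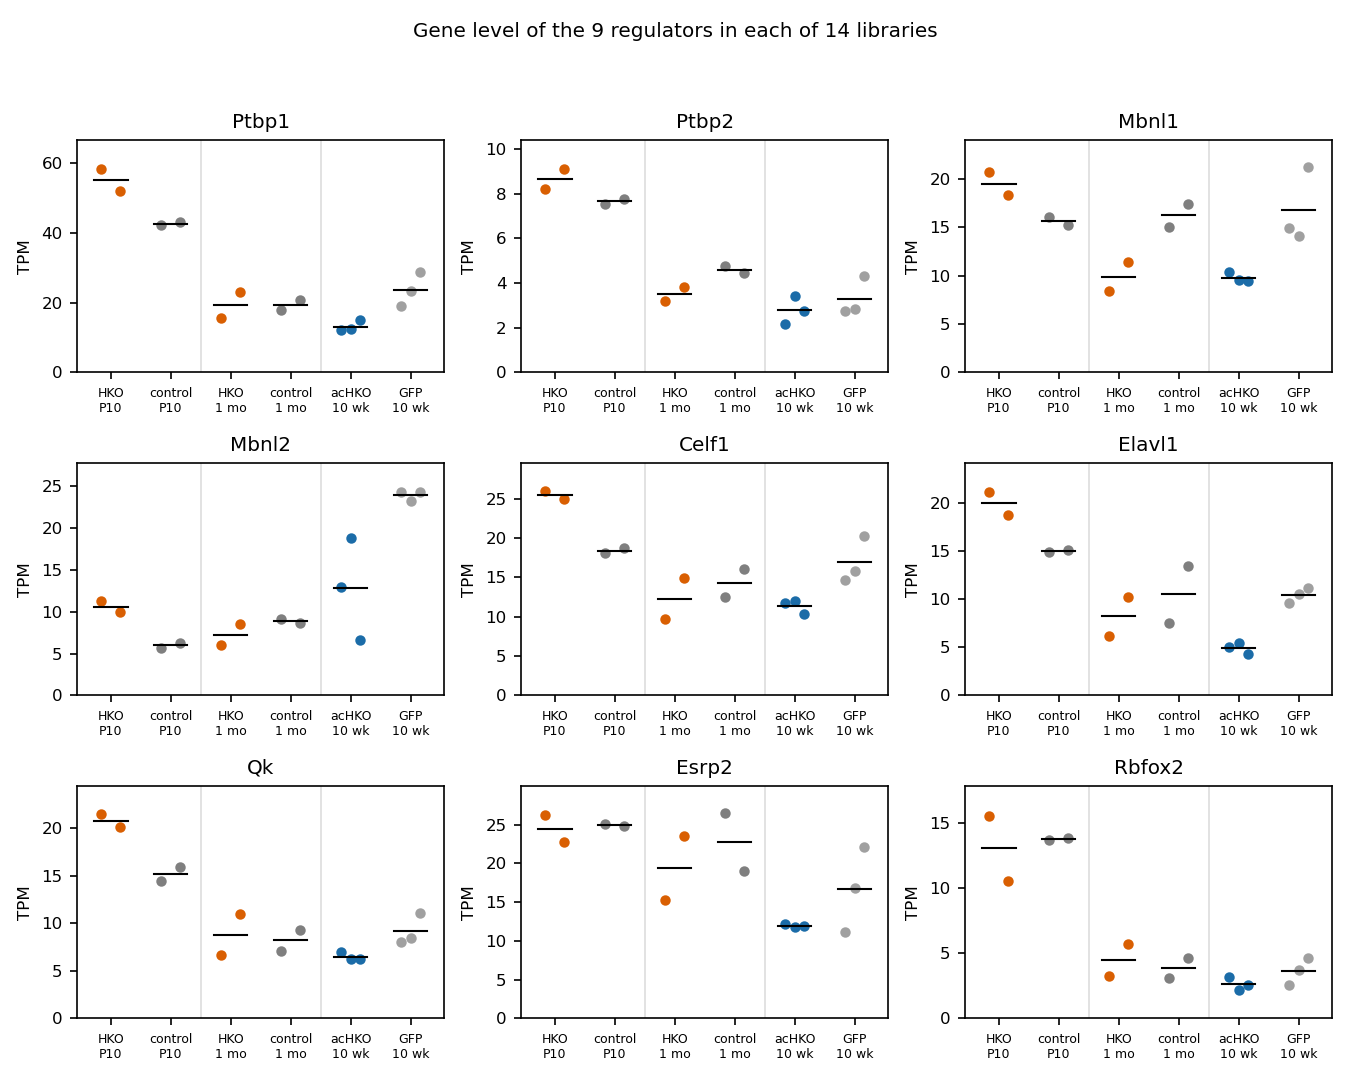
TPM of each regulator (y axis, from 0) in every library, with HKO or acHKO left of its control in each pair; dots are libraries and black bars group means. Ptbp1 and Rbfox2 sit lower at 1 month than at P10, and Mbnl2 is at 13.0, 18.8 and 6.62 TPM in acHKO, against 24.3, 23.2 and 24.3 TPM in GFP libraries.

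The first comparison asked how the 9 regulators change between P10 and 1 month in control hepatocytes. On deposited TPM, 4 of the 9 fell and none rose (Ptbp1, Ptbp2, Qk and Rbfox2), where 38.2% of all 11736 genes tested were called lower. After rescaling, Ptbp1 and Rbfox2 were called lower (24.5% of all genes) and Mbnl1 and Mbnl2 higher (23.3% of all genes). The median change of the 9 genes was -0.53, against -0.43 over all genes.

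Rbfox2, which places exons by binding UGCAUG elements, had the lowest ratio, at 3.10 and 4.64 TPM in 1-month controls, against 13.7 and 13.8 TPM in P10 controls. The 2 ages did not overlap, and both 1-month libraries were far below both P10 libraries. Relative to the median gene its log2 change was -1.19 (SE 0.27, adjusted p = 0.000652, rescaled adjusted p = 0.0023). Ptbp1, the polypyrimidine tract binding repressor of many exons, had 17.9 and 20.8 TPM at 1 month, against 42.2 and 43.1 TPM at P10, again without overlap. The relative log2 change of Ptbp1 was -0.68 (SE 0.24, adjusted p = 0.00376, rescaled 0.00147). Ptbp2, the paralog best known from neurons, had 4.76 and 4.44 TPM at 1 month, against 7.54 and 7.79 TPM at P10. It passed on deposited TPM (relative log2 change -0.20, adjusted p = 0.0165), and not after rescaling (0.325), with protein_coding transcripts alone (0.165) or without any 1 of the 4 control libraries (0.055 to 0.151). Qk, a STAR-family regulator of splicing and RNA stability, had 7.10 and 9.31 TPM at 1 month, against 14.4 and 16.0 TPM at P10. Its relative log2 change was -0.39 (adjusted p = 0.0206). The call was lost after rescaling (0.0518) and without P10 control replicate 1 (0.0788), P10 control replicate 2 (0.141) or 1-month control replicate 1 (0.136).

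The muscleblind proteins favour adult exon choices in several tissues, and neither of their genes passed as higher on deposited TPM. Mbnl2 had 9.17 and 8.62 TPM in 1-month controls, against 5.72 and 6.22 TPM in P10 controls, without overlap. Its transcript without a coding frame, Mbnl2-205, averaged 5.76 ± 0.819 TPM in 1-month and 3.39 ± 0.329 TPM in P10 controls. The coding Mbnl2-201 averaged 1.53 ± 0.133 and 1.51 ± 0.183 TPM, and the coding Mbnl2-204 0.645 ± 0.254 and 0.691 ± 0.0845 TPM. The gene-level rise is therefore not shown for these 2 coding transcripts. The relative log2 change of Mbnl2 was 0.94 (SE 0.21), with an adjusted p of 0.0684 on deposited TPM, 0.000543 after rescaling and 0.00973 without mitochondrially encoded genes. In that last fit 7.49% of all genes were called higher and 53.2% lower, and 5 members were lower, Celf1 beside the 4 named above. Mbnl1 had 15.1 and 17.4 TPM at 1 month, against 16.0 and 15.2 TPM at P10, so its TPM overlapped. Its relative log2 change was 0.48, and the gene passed only after rescaling (limma adjusted p 0.869 deposited, 0.00192 rescaled). Celf1, often antagonistic to MBNL proteins, had 12.5 and 16.0 TPM at 1 month, against 18.0 and 18.7 TPM at P10 (relative 0.07, adjusted p = 0.251, and 0.0407 without mitochondrially encoded genes, where its change relative to the median gene was 0.09). Elavl1 (HuR), a stabiliser of AU-rich mRNAs, had 7.57 and 13.5 TPM at 1 month, against 14.9 and 15.2 TPM at P10 (relative -0.10, adjusted p = 0.16, and 0.0352 without 1-month control replicate 2). Esrp2, the epithelial splicing regulator of adult hepatocytes, had 26.5 and 19.0 TPM at 1 month, against 25.0 and 24.9 TPM at P10, which overlapped (relative 0.28, adjusted p = 0.673). Markers of other liver cells were lower at 1 month: stellate markers summed to 4.37 to 4.70 TPM (1 of 6 at 1 TPM or more) against 86.2 to 96.4 TPM at P10 (5 of 6), and neutrophil markers to 0.372 to 0.479 TPM (0 of 5) against 145 to 202 TPM (4 of 5). None was at 0 in every library, and their part in these changes was not tested.

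In HKO hepatocytes over the same ages, 7 of the 9 genes were called lower at 1 month on deposited TPM (62.2% of all genes were) and 4 after rescaling, Ptbp1, Ptbp2, Qk and Rbfox2 (23.1% of all genes). Ptbp1 had 15.7 and 22.9 TPM at 1 month, against 58.3 and 52.0 TPM at P10 (relative log2 change -0.79, adjusted p = 0.00044). Rbfox2 had 3.26 and 5.71 TPM at 1 month, against 15.5 and 10.5 TPM at P10 (relative -0.67, adjusted p = 0.00153). Mbnl2 in HKO had 6.04 and 8.48 TPM at 1 month, against 11.2 and 9.97 TPM at P10, and Mbnl1 had 8.40 and 11.4 TPM, against 20.7 and 18.3 TPM. The relative change was 0.20 for Mbnl2 and -0.22 for Mbnl1. The difference between the knockout effects at 1 month and at P10, tested as an interaction, was called for no member on deposited TPM (limma; 2.8% of all genes were called, and 2 members, Mbnl1 and Mbnl2, had an unadjusted p below 0.05). After rescaling Mbnl1 (adjusted p = 0.0244) and Mbnl2 (0.0405) passed, with relative differences of -0.72 and -0.76 on the log2 scale, where 2.51% of all genes passed as lower. Without HKO replicate 2 at 1 month, the deposited values of Mbnl1, Mbnl2 and Celf1 passed this test as well (adjusted p = 0.03, 0.0238 and 0.0486), the lone library being assumed to vary like the other groups. In that fit 12.2% of all genes passed as lower.

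At P10, HKO and control hepatocytes differed at Mbnl2 alone among the 9 genes (10.8% of all genes were called higher on deposited TPM and 8.43% after rescaling). Mbnl2 had 11.2 and 9.97 TPM in HKO, against 5.72 and 6.22 TPM in controls, without overlap. Its transcript without a coding frame, Mbnl2-205, averaged 6.25 ± 0.187 TPM in HKO and 3.39 ± 0.329 TPM in controls (SD, n = 2 each). The coding Mbnl2-201 averaged 2.90 ± 0.319 and 1.51 ± 0.183 TPM, and the coding Mbnl2-204 0.483 ± 0.549 and 0.691 ± 0.0845 TPM. Mbnl2 changed by 0.48 relative to the median gene (SE 0.21, adjusted p = 0.042, rescaled 0.0308). The call was lost without any 1 of the 4 libraries (adjusted p 0.156 without HKO replicate 2, the female library, to 0.332 without control replicate 1). Ptbp1, at 58.3 and 52.0 TPM in HKO and 42.2 and 43.1 TPM in controls, and Qk, at 21.5 and 20.1 TPM in HKO and 14.4 and 16.0 TPM in controls, were higher in both HKO libraries by about as much as the median gene (relative 0.11 and 0.18). With mitochondrially encoded genes left out of the TPM, Mbnl2, Ptbp1 and Celf1 were called higher (adjusted p = 0.00657, 0.0458 and 0.0408), as were 24.4% of all genes. Rbfox2 was at 15.5 and 10.5 TPM in HKO and 13.7 and 13.8 TPM in controls. Esrp2 was at 26.2 and 22.7 TPM in HKO and 25.0 and 24.9 TPM in controls. Their relative changes were -0.35 and -0.28, and neither gene passed. In the authors' deposited table, Mbnl2 was higher in HKO (log2 fold change 0.52, adjusted p = 0.00145) and Esrp2 lower (-0.34, adjusted p = 0.0266), its sign being read from Srsf1 (-1.07). Erythroid markers (5 of 5 at 1 TPM or more in each group) summed to 321 to 2074 TPM in HKO and 151 to 247 TPM in controls at this age. Hepatocyte markers (6 of 6 in each group) summed to 59169 to 75728 TPM in HKO and 107174 to 112239 TPM in controls, with 2 of 6 called lower. Cholangiocyte markers summed to 118 to 147 TPM in HKO (4 of 6 at 1 TPM or more) and 56.9 to 69.2 TPM in controls (2 of 6), with 2 of 3 tested called higher. The part of these cells in the P10 values was not tested.

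At 1 month no member was called on deposited TPM (limma; 4.87% of all genes were called higher and 1.99% lower), and 1 member, Mbnl1, had an unadjusted p below 0.05. Mbnl1 had 8.40 and 11.4 TPM in HKO, against 15.1 and 17.4 TPM in controls, without overlap. Its relative log2 change was -0.67 (SE 0.22, adjusted p = 0.107). It passed after rescaling (0.00386; 7.31% of all genes lower), without mitochondrially encoded genes (0.043; 2.01% lower) and without HKO replicate 2 (0.0263). In the authors' deposited table, Mbnl1 was the 1 member of 9 past 0.05 at this age, at a log2 fold change of -0.80 (SE 0.22, adjusted p = 0.00331). Ptbp1 was at 15.7 and 22.9 TPM in HKO and 17.9 and 20.8 TPM in controls, and Esrp2 at 15.3 and 23.5 TPM in HKO and 26.5 and 19.0 TPM in controls, so the groups overlapped for both. Rbfox2 (3.26 and 5.71 TPM in HKO, 3.10 and 4.64 TPM in controls) and Qk (6.65 and 11.0 TPM in HKO, 7.10 and 9.31 TPM in controls) overlapped too. Of the macrophage markers summed above, 4 of 6 were called higher in HKO at this age. Cholangiocyte markers summed to 20.0 to 34.3 TPM in HKO and 1.59 to 1.93 TPM in controls. Stellate markers summed to 8.40 to 23.1 TPM in HKO and 4.37 to 4.70 TPM in controls. Endothelial, hepatocyte and erythroid sums overlapped between the groups. The part of these cells in the 1-month values was not tested. The developmental comparison and the 2 HKO comparisons share the control libraries, so their values are not independent.

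After acute deletion, all 5 members that passed on deposited TPM were lower in acHKO: Elavl1, Ptbp1, Mbnl2, Mbnl1 and Celf1 (34.8% of all 9963 genes were called lower). Elavl1 alone passed after rescaling (19.0% of all genes lower) and without mitochondrially encoded genes (7.84% lower), and all 9 members had lower means than in GFP on the TPM scale. Elavl1 had 4.98, 5.44 and 4.34 TPM in acHKO, against 9.65, 10.5 and 11.2 TPM in GFP, with every acHKO library well below every GFP library. The relative log2 change was -0.59 (SE 0.19, adjusted p = 0.00109, rescaled 0.00768, without mitochondrially encoded genes 0.0476). The coding Elavl1-204 averaged 3.86 ± 0.552 TPM in acHKO and 7.68 ± 0.742 TPM in GFP (SD, n = 3 each). The coding Elavl1-201 averaged 0.847 ± 0.0605 and 0.725 ± 0.242 TPM, and the intron-retaining Elavl1-203 0.196 ± 0.0668 and 2.02 ± 0.218 TPM. Mbnl2 had 13.0, 18.8 and 6.62 TPM in acHKO, against 24.3, 23.2 and 24.3 TPM in GFP; the GFP libraries were tightly grouped and the acHKO libraries spread over a wide range below them. Mbnl2 changed by -0.60 relative to the median gene (SE 0.27, adjusted p = 0.00939, rescaled 0.22). Without acHKO replicate 3, the lowest library, the relative log2 change was -0.26 (adjusted p = 0.0564), and without acHKO replicate 2, the highest, it was -0.91. The call was also lost without GFP replicate 3 (adjusted p = 0.0746).

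Ptbp1 had 12.0, 12.3 and 15.0 TPM in acHKO, against 19.0, 23.3 and 28.8 TPM in GFP, without overlap (relative -0.43, SE 0.21, adjusted p = 0.00638, rescaled 0.0683). Mbnl1 had 10.4, 9.60 and 9.41 TPM in acHKO, against 15.0, 14.1 and 21.2 TPM in GFP, also without overlap (relative -0.33, SE 0.20, adjusted p = 0.0124, rescaled 0.0728). Celf1 had 11.7, 12.0 and 10.3 TPM in acHKO, against 14.7, 15.8 and 20.2 TPM in GFP (relative -0.17, adjusted p = 0.0404, rescaled 0.295). The Celf1 call was lost without any 1 library other than GFP replicate 1 (adjusted p 0.0714 without GFP replicate 3 to 0.145 without acHKO replicate 3). Qk (7.03, 6.21 and 6.25 TPM in acHKO, 8.08, 8.46 and 11.1 TPM in GFP), Esrp2 (12.2, 11.7 and 12.0 TPM in acHKO, 11.1, 16.8 and 22.1 TPM in GFP), Rbfox2 (3.18, 2.20 and 2.59 TPM in acHKO, 2.59, 3.70 and 4.65 TPM in GFP) and Ptbp2 (2.18, 3.41 and 2.73 TPM in acHKO, 2.77, 2.84 and 4.30 TPM in GFP) did not pass. Without GFP replicate 1, which was lowest in all 4 of these genes, Qk, Esrp2 and Rbfox2 passed on deposited TPM (adjusted p = 0.0353, 0.0166 and 0.0416). In the authors' deposited table, Elavl1, Ptbp1 and Mbnl1 were past 0.05 and lower, at log2 fold changes of -0.80, -0.53 and -0.47 (adjusted p = 9.12e-05, 0.00636 and 0.0135). The mitochondrially encoded share given above moves with the group here, and a fit without those genes left 1 of the 5 calls. Hepatocyte markers summed to 30042 to 46498 TPM in acHKO and 37990 to 49270 TPM in GFP (3 of 6 called lower), and erythroid markers to 7.87 to 12.2 TPM in acHKO and 29.9 to 46.7 TPM in GFP (1 of 1 tested lower). Macrophage markers summed to 3.74 to 21.2 TPM in acHKO (4 of 6 at 1 TPM or more) and 2.24 to 5.77 TPM in GFP (1 of 6), with 2 of 2 tested called higher. Stellate markers summed to 3.45 to 12.3 TPM in acHKO and 1.17 to 5.76 TPM in GFP, with 1 of 1 tested called higher. Their part in the acute values was not tested. The contrast of acute with 1-month effect was called for no member at the gene level (limma; 6.83% of all genes were called, and Ptbp1 alone had an unadjusted p below 0.05). Without HKO replicate 1 at 1 month the adjusted p of Ptbp1 was 0.0331.

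**Figure D2:**
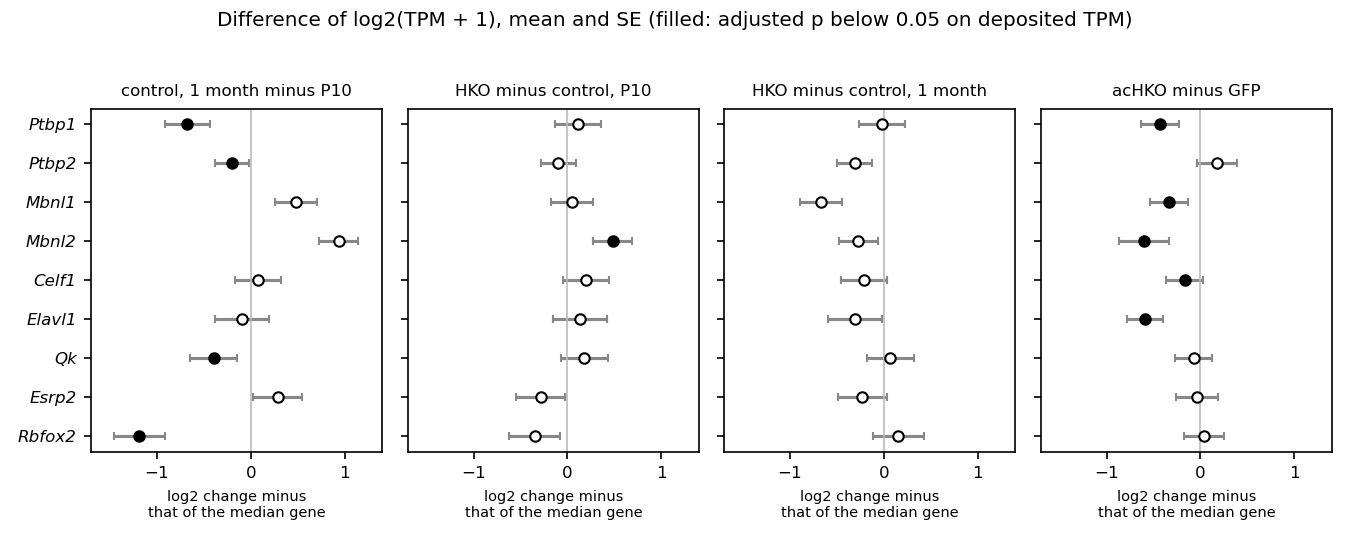
Difference of log2(TPM + 1) minus that of the median gene (x axis) for each regulator in 4 comparisons. Bars are the standard error of the fit. Filled points passed an adjusted p of 0.05 (limma, deposited TPM) for the change before that subtraction, not for the position shown. Mbnl2 lies at 0.94 in development and -0.60 after acute deletion; of the filled points, Ptbp1 and Rbfox2 in development, Mbnl2 at P10 and Elavl1 in the acute model also passed after rescaling.

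Transcript composition was described as each transcript's share of its gene's TPM. The limma diffSplice test used log2(transcript TPM + 1), set against the other tested transcripts of the gene. A call needed an adjusted p below 0.05 and a share that moved by at least 10 percentage points. The adjusted p therefore does not test the difference in points printed beside it. In development, Celf1 was called (1 of 9 members; 2.88% of 4265 genes tested). For HKO against control no member was called at P10 (0.586% of genes; Celf1 alone had an unadjusted p below 0.05) or at 1 month (0.234% of genes; 0 members below 0.05 unadjusted, limma). After acute deletion 4 of the 6 members with at least 2 testable transcripts were called, Celf1, Ptbp1, Qk and Mbnl1, where 35.5% of 3415 genes were. Transcript TPM is an estimate that divides reads among overlapping transcripts, so shares of transcripts that differ little are uncertain.

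Qk lies at chr17:10202601-10319854 (GRCm38) on the minus strand, and its transcripts differ in the 3′ coding end, which sets whether the protein carries the nuclear QKI-5 tail. Qk-204, with 341 codons, has the length of QKI-5, and Qk-202 and Qk-206 share 1 coding sequence of 319 codons, the length of QKI-6. Qk-202 adds an exon downstream of that stop codon and is annotated as a nonsense-mediated decay (NMD) transcript. Qk-202 held 21.9, 18.8 and 22.4% of Qk in acHKO, against 46.4, 41.2 and 43.1% in GFP, with the groups far apart (-22.5 percentage points, adjusted p = 0.000369). Qk-206 held 33.8, 35.5 and 34.1% in acHKO, against 18.5, 26.0 and 20.1% in GFP (12.9 points, adjusted p = 0.00908). Qk-204 held 36.8, 38.8 and 36.6% in acHKO, against 31.3, 26.2 and 30.6% in GFP, also without overlap, and was not called. Summed over Qk-202 and Qk-206, the 319-codon sequence was 55.5 ± 1.11% of Qk in acHKO and 65.1 ± 2.02% in GFP (SD, n = 3 each). It was 65.8 ± 1.02% in HKO and 68.7 ± 7.65% in controls at 1 month, and 71.2 ± 2.52% in HKO and 75.7 ± 2.14% in controls at P10 (n = 2 each). This sum counts the NMD-annotated Qk-202. In the acute model Qk-202 averaged 1.37 ± 0.188 TPM in acHKO and 4.01 ± 0.684 TPM in GFP. Qk-206 averaged 2.24 ± 0.128 TPM in acHKO and 1.98 ± 0.417 TPM in GFP, and Qk-204 2.43 ± 0.149 and 2.71 ± 0.609 TPM. The lower summed share thus came with fewer Qk-202 TPM and not with fewer Qk-206 TPM. In the HKO model Qk-202 held 32.9 and 35.8% in HKO and 42.5 and 54.1% in controls at 1 month, and 44.0 and 39.4% in HKO and 50.2 and 52.5% in controls at P10. Both HKO libraries lay below both controls at each age, and neither age passed (adjusted p = 0.971 and 0.888 for the gene). Nor was the contrast of the acute with the 1-month effect on Qk called (adjusted p = 0.711).

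Ptbp1 lies at chr10:79854427-79864771 on the plus strand. Its longest coding transcript, Ptbp1-216 (555 codons), holds an in-frame exon of 78 nucleotides (chr10:79860117-79860194) and an exon of 34 nucleotides (chr10:79862014-79862047), which is out of frame. Ptbp1-201 lacks both and is annotated as an NMD transcript. Skipping of the shorter exon is the known route by which PTB proteins limit their own level. Ptbp1-201 held 3.75, 3.74 and 5.44% of Ptbp1 in acHKO, against 17.5, 15.5 and 16.6% in GFP (-12.2 points, adjusted p = 0.000286), so the NMD-annotated share was lower in every acHKO library. Over the 8 P10 and 1-month libraries it ranged from 3.10 to 11.1%, a range that holds all acHKO values and no GFP value. Ptbp1-213, annotated as an intron-retaining transcript, held 9.37, 18.9 and 12.2% in acHKO, against 3.16, 6.40 and 5.31% in GFP, and 26.7 and 11.3% in 1-month controls, against 6.23 and 5.43% in P10 controls. The developmental change of Ptbp1-213 passed (13.1 points, adjusted p = 0.0298) while the gene did not (0.106). Without 1-month control replicate 1 the difference was 5.46 points (adjusted p = 0.61). Without P10 control replicate 1 or 2 the adjusted p was 0.289 or 0.456. Ptbp1-202 (489 codons, without the 78-nucleotide exon) held 24.9 and 23.4% in HKO and 18.3 and 26.2% in controls at 1 month, 30.9 and 38.4% in HKO and 28.6 and 33.0% in controls at P10, but 11.8, 17.9 and 9.81% in acHKO and 9.39, 8.91 and 10.2% in GFP.

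Celf1 lies at chr2:90940382-91019497 on the plus strand, and its called transcripts differ in where they start and in short stretches of coding sequence. Celf1-205 (486 codons) held 36.4, 35.5 and 36.9% of Celf1 in acHKO, against 9.39, 1.85 and 17.1% in GFP (26.8 points, adjusted p = 3.94e-05); the acHKO libraries were alike and the GFP libraries scattered far below them. Celf1-201 (513 codons, with an extra first coding exon) held 20.7, 11.5 and 15.1% in acHKO, against 32.4, 32.8 and 29.2% in GFP (-15.7 points, adjusted p = 0.0274, and 0.136 without acHKO replicate 2 or 0.0959 without replicate 3). Celf1-204 (483 codons) held 8.23, 14.8 and 9.55% in acHKO, against 24.4, 25.9 and 21.0% in GFP (-12.9 points, adjusted p = 0.0317, and 0.134 without acHKO replicate 1 or 0.118 without replicate 3). Celf1-206 has the same coding sequence as Celf1-205 and an additional 5′ exon. It averaged 2.33 ± 3.51% in acHKO and 11.8 ± 2.21% in GFP. All 4 transcripts with the 486-codon sequence summed to 47.1 ± 1.38% in acHKO and 26.1 ± 5.29% in GFP, and those with the 513-codon sequence to 21.6 ± 0.754% in acHKO and 38.8 ± 1.20% in GFP (SD, n = 3 each). In development Celf1-205 held 25.6 and 17.8% in 1-month controls, against 4.71 and 1.57% in P10 controls (18.5 points, adjusted p = 0.0036). The call was lost without 1-month control replicate 1 (0.0666), P10 control replicate 1 (0.0754) or P10 control replicate 2 (0.263). In HKO at P10 the 2 libraries disagreed on Celf1-205, at 6.07 and 23.3%. Celf1-206, with the same coding sequence, moved the other way in development, at 14.3 ± 4.38% in 1-month and 21.4 ± 1.00% in P10 controls. All 4 transcripts with the 486-codon sequence summed to 38.9 ± 3.49% in 1-month controls, against 32.7 ± 0.139% in P10 controls (n = 2 each). The acute effect on Celf1 usage differed from the 1-month effect (gene adjusted p = 0.0414), as did that on Ptbp1 (0.0322), among 7.75% of 3935 genes. That call of Celf1 was lost in 6 of the 10 fits without 1 library (control replicate 1 or HKO replicate 2 at 1 month, GFP replicate 1 or 2, acHKO replicate 1 or 3; adjusted p 0.0807 to 0.44). That of Ptbp1 was lost in 6 of 10 (control replicate 1 or HKO replicate 2 at 1 month, any GFP library, acHKO replicate 2; 0.0582 to 0.301) and with transcripts of at least 10% of the gene (0.455).

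Mbnl1 (chr3:60472830-60629750, plus strand) was called after acute deletion (diffSplice adjusted p = 0.00711 for the gene). Its called transcript was Mbnl1-214 (387 codons), at 31.0, 30.7 and 25.2% in acHKO, against 16.4, 14.5 and 17.8% in GFP (12.7 points, adjusted p = 0.0492). That transcript's call was lost without any 1 library other than GFP replicate 3 (adjusted p 0.0823 to 0.188). Mbnl1-218 (347 codons), which lacks the exon of 95 nucleotides near the 3′ end, held 19.0, 21.3 and 23.0% in acHKO, against 28.8, 32.1 and 29.6% in GFP. Its difference of -9.06 points (diffSplice adjusted p = 0.00532) was under the size needed for a call. Elavl1, with 1 coding sequence of 326 codons in Elavl1-201 and Elavl1-204, had an intron-retaining transcript, Elavl1-203. It held 4.87, 2.20 and 5.23% in acHKO, against 22.9, 19.7 and 15.9% in GFP. The gene was not called (diffSplice adjusted p = 0.0794). Elavl1-203 was called with a pseudocount of 0.1 (0.000673) and at 0.5 TPM with no minimum share (0.000344). In the latter run Elavl1-201 was called too (10.4 points, 4.3e-05). Elavl1-201 averaged 17.3 ± 0.870% in acHKO and 6.85 ± 1.87% in GFP. Mbnl2 was unusual in that Mbnl2-205, an annotated processed transcript of 2 exons with no coding frame, was its largest, at 56.6 ± 7.25% in acHKO and 49.7 ± 0.821% in GFP (SD, n = 3 each). Esrp2 (chr8:106130319-106136974, minus strand) had 67.4 ± 6.44% in acHKO and 69.8 ± 0.908% in GFP in its full coding transcript Esrp2-201. Rbfox2 (chr15:77078990-77307004, minus strand) has several first exons. Rbfox2-204, from an upstream one, averaged 37.2 ± 8.32% in acHKO and 37.1 ± 5.89% in GFP. It averaged 10.2 ± 2.03% in HKO and 19.9 ± 1.70% in controls at 1 month, and 7.58 ± 2.80% in HKO and 5.40 ± 1.60% in controls at P10. Ptbp2 (chr3:119718742-119784466, minus strand), Elavl1 (chr8:4285382-4325413, minus strand) and Mbnl2 (chr14:120275669-120431697, plus strand) were tested in development and in the HKO model, without a call. In the acute model Mbnl2 was tested and not called. Usage of Ptbp2, Esrp2 and Rbfox2 was not tested there, as too few of their transcripts reached the level needed.

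Rbfox2-203 (381 codons) was the largest Rbfox2 transcript of the P10 and 1-month groups, at 1.76 and 1.80 TPM in 1-month controls, against 5.58 and 5.89 TPM in P10 controls. Rbfox2-205, a short processed transcript with no coding frame, was at 0.191 and 1.07 TPM in 1-month controls, against 3.80 and 3.66 TPM in P10 controls, so both transcripts were lower at 1 month in every library. As a share of the gene, Rbfox2-203 held 19.7, 28.8 and 34.9% in acHKO and 21.6, 16.7 and 19.1% in GFP; it held 57.4 and 39.6% in HKO and 56.6 and 38.7% in controls at 1 month, and 44.9 and 54.8% in HKO and 40.7 and 42.6% in controls at P10. Rbfox2-214 (201 codons) averaged 11.4 ± 3.90% in acHKO and 7.33 ± 1.69% in GFP. Of the other Mbnl1 transcripts, Mbnl1-203 (254 codons) held 15.3, 23.2 and 16.0% in acHKO and 16.8, 20.3 and 16.5% in GFP, and 28.3 to 36.1% over the 8 P10 and 1-month libraries. Mbnl1-201 (381 codons) averaged 17.1 ± 1.69% in acHKO and 10.1 ± 0.945% in GFP. Mbnl2-201 (373 codons), the largest coding transcript of Mbnl2, held 29.0, 21.8 and 31.0% in acHKO and 24.8, 22.3 and 26.7% in GFP; it held 23.8 and 27.0% in HKO and 15.6 and 18.8% in controls at 1 month, and 27.9 and 26.9% in HKO and 28.7 and 22.2% in controls at P10. Mbnl2-204 (355 codons), without the exon of 54 nucleotides, averaged 6.82 ± 3.58% in acHKO and 16.3 ± 0.590% in GFP. Ptbp2-201 (532 codons) held 31.4, 30.1 and 39.5% in acHKO and 53.5, 45.0 and 48.1% in GFP; it held 45.9 and 43.8% in HKO and 42.6 and 50.8% in controls at 1 month, and 37.5 and 38.6% in HKO and 44.9 and 39.9% in controls at P10. Ptbp2-206, annotated as an NMD transcript, averaged 25.7 ± 4.59% in acHKO and 16.7 ± 7.87% in GFP, and the intron-retaining Ptbp2-211 15.3 ± 2.84% in acHKO and 5.15 ± 1.04% in GFP. Celf1-202 (487 codons) averaged 13.6 ± 2.78% in acHKO and 7.06 ± 2.50% in GFP, and Celf1-208 (513 codons) 4.53 ± 1.64% in 1-month and 10.1 ± 0.581% in P10 controls. Of these 12 transcripts, Rbfox2-214 and Ptbp2-211 were under the level needed for a test, and none of the others was called in the tests that its level allowed.

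**Figure D3:**
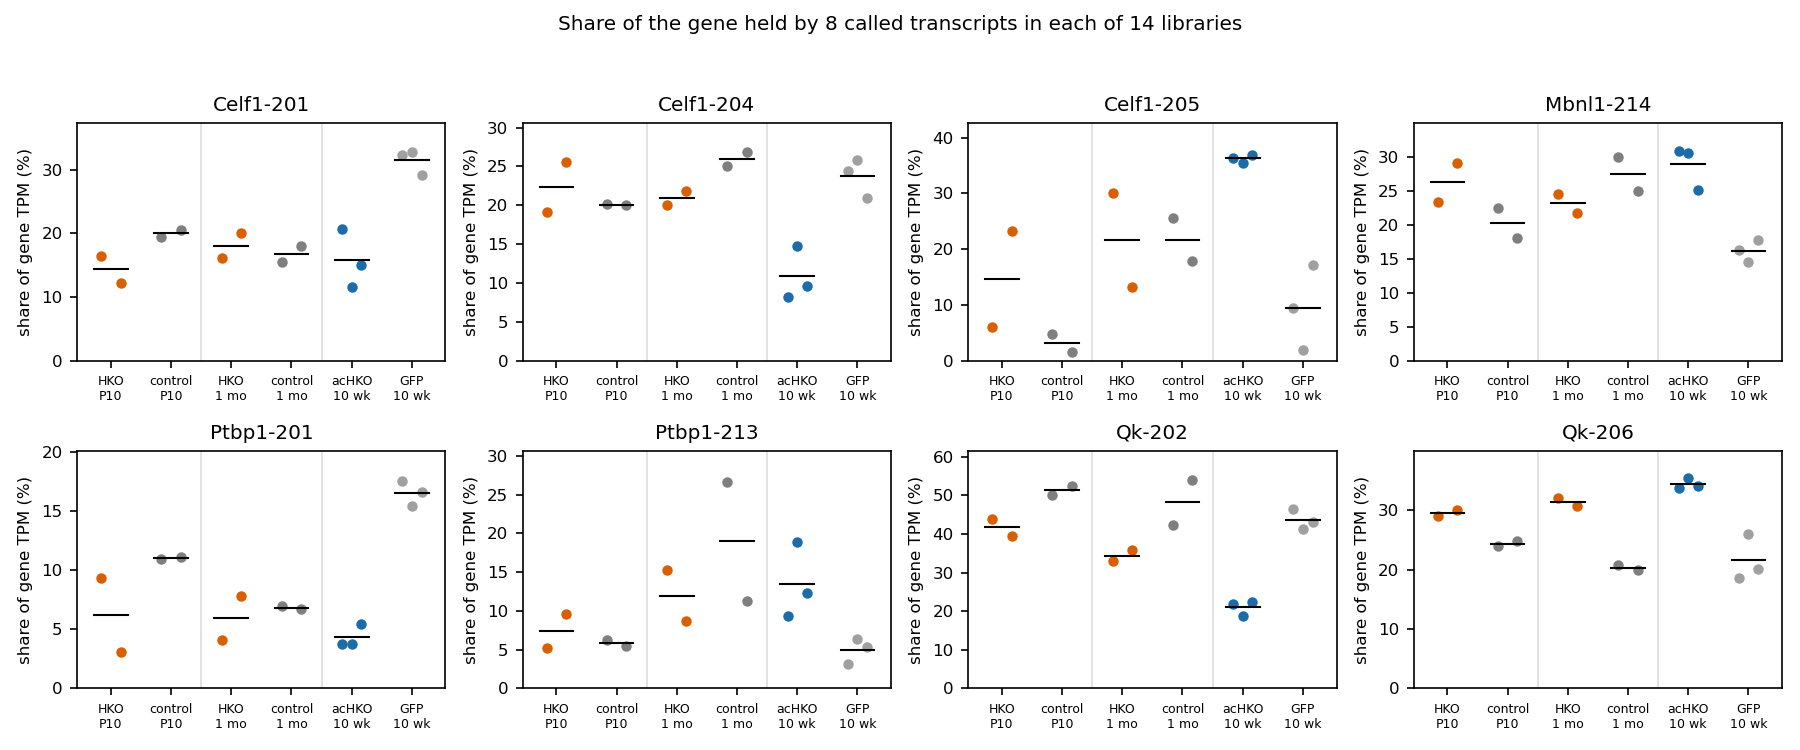
Share of the gene's TPM (y axis, percent, from 0) held in each library by the 8 transcripts called in development or in the acute model; dots are libraries and black bars group means, with HKO or acHKO left of its control. Qk-202 is at 21.9, 18.8 and 22.4% in acHKO, against 46.4, 41.2 and 43.1% in GFP, and Celf1-205 at 36.4, 35.5 and 36.9%, against 9.39, 1.85 and 17.1%.

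Several of these regulators carry alternative exons that are shared between paralogs, printed here because most of the exon calls below turn on them (GENCODE transcripts on GRCm38, 5′ to 3′, lower case; capitals in the second of each pair mark bases that differ from the first at the same position). The exon of 34 nucleotides lies at chr10:79862014-79862047, plus strand, in Ptbp1 and at chr3:119724612-119724645, minus strand, in Ptbp2, and matched at 26 of 34 bases.
Ptbp1 exon of 34: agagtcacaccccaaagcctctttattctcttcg
Ptbp2 exon of 34: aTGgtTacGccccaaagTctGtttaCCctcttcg
The Ptbp1 exon of 78 nucleotides (chr10:79860117-79860194, plus strand) is in frame and encodes part of the linker before the third RNA recognition motif.
Ptbp1 exon of 78: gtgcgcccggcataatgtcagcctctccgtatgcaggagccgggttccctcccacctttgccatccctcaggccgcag
The exon of 95 nucleotides of Mbnl1 (chr3:60622146-60622240, plus strand) and Mbnl2 (chr14:120404638-120404732, plus strand) matched at 81 of 95 bases, and its use shifts the frame of the C-terminal end.
Mbnl1 exon of 95: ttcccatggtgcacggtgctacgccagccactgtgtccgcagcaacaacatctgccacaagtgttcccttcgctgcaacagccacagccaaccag
Mbnl2 exon of 95: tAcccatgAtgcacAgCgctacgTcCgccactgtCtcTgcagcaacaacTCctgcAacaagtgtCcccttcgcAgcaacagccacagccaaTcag
The in-frame exon of 54 nucleotides of Mbnl1 (chr3:60614683-60614736, plus strand) and Mbnl2 (chr14:120395712-120395765, plus strand), known to favour nuclear location of the protein, matched at 46 of 54 bases.
Mbnl1 exon of 54: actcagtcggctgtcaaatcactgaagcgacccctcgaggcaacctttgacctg
Mbnl2 exon of 54: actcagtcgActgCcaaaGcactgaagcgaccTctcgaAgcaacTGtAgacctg
The in-frame exon of 36 nucleotides of Mbnl1 (chr3:60621423-60621458, plus strand) and Mbnl2 (chr14:120403336-120403371, plus strand) matched at 31 of 36 bases.
Mbnl1 exon of 36: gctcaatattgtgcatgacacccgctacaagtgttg
Mbnl2 exon of 36: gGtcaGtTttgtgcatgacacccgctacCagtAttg

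The letters TGCATG, the RBFOX element, occurred once on the transcript strand in each of the exons of 36 nucleotides and in 3 of the 115 annotated cassette exons of that length (2.61%). The purine-rich letters GGAGA and GAAGAA, which resemble SRSF1-bound sequence, were in none of the 9 printed exons on that strand; among annotated cassette exons of the same lengths, GGAGA was in 5.36 to 16.9% and GAAGAA in 3.57 to 13.7%. No match says only that these letters are not in these windows.

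Exon inclusion was the TPM of annotated transcripts that hold an internal exon, over the TPM of those that hold it or skip it, called at an adjusted p below 0.05 (limma) and at least 10 percentage points. No exon of a member was called in development (28 tested; 0.0823% of 8505 exons were called, and 2 member exons had an unadjusted p below 0.05). For HKO against control, 0 of 28 were called at P10 (0.0235% of all exons; 1 member exon below 0.05 unadjusted) and 0 of 28 at 1 month (0.0353%; 0 below 0.05 unadjusted, limma). After acute deletion 4 of 21 were called (9.79% of 6730 exons), in Ptbp1, Mbnl1, Mbnl2 and Celf1.

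The Ptbp1 exon of 34 nucleotides was included at 94.1, 93.9 and 91.9% in acHKO, against 80.2, 81.3 and 80.7% in GFP, a difference of 12.6 percentage points (SE 0.727, adjusted p = 0.00167) with no overlap. In the HKO model it was included at 94.2 and 90.1% in HKO and 88.6 and 91.3% in controls at 1 month, and at 89.1 and 96.1% in HKO and 87.4 and 87.3% in controls at P10, so acHKO lay inside the range of the younger libraries and GFP below it. The contrast of acute with 1-month effect was 10.3 percentage points (SE 2.79, adjusted p = 0.0855), which did not pass. The Ptbp1 exon of 78 nucleotides, whose skipping is known to weaken repression by PTBP1, was included at 58.4 and 58.1% in 1-month controls, against 50.9 and 48.5% in P10 controls, a difference of 8.57 percentage points (SE 1.28, adjusted p = 0.127) that did not pass. It stood at 77.0, 66.9 and 77.4% in acHKO and 64.6, 68.6 and 63.0% in GFP, which overlapped.

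The Mbnl1 exon of 95 nucleotides was included at 77.3, 76.5 and 72.6% in acHKO, against 55.1, 56.0 and 60.2% in GFP, a difference of 18.3 percentage points (SE 1.98, adjusted p = 0.00671). The 8 younger libraries ranged from 73.0 to 86.3%, so here too acHKO lay at or near their range and all GFP libraries below it; the acute minus 1-month difference was 18.5 percentage points (SE 4.28, adjusted p = 0.0543). The Mbnl2 exon of 54 nucleotides was included at 68.1, 68.5 and 68.7% in acHKO, against 55.8, 55.7 and 59.0% in GFP, a difference of 11.6 percentage points (SE 1.02, adjusted p = 0.00428). In the HKO model it was at 77.2 and 76.6% in HKO and 63.3 and 57.8% in controls at 1 month, and at 65.2 and 80.1% in HKO and 66.5 and 55.9% in controls at P10. Both HKO libraries lay above both controls at 1 month and not at P10, and its transcripts were under the level needed for a test there. The paralogous Mbnl1 exon was at 54.4, 55.5 and 53.1% in acHKO and 50.6, 51.7 and 53.0% in GFP, a difference of 2.51 percentage points (SE 0.918, adjusted p = 0.137) that did not pass. The Mbnl1 exon of 36 nucleotides was at 40.3, 42.8 and 39.5% in acHKO and 43.7, 40.8 and 37.6% in GFP, with no detectable difference at this spread, at 0.148 percentage points (SE 1.90, adjusted p = 1). For the Mbnl2 exon of 95 nucleotides the one annotated transcript without it is Mbnl2-205, so its inclusion mirrors the share of that transcript and is not read as skipping. The Mbnl1 exon of 1049 nucleotides, partly coding, was at 62.4 ± 2.79% in acHKO and 62.0 ± 0.908% in GFP (SD, n = 3 each) and was not called. The Mbnl1 exon of 49 nucleotides was at 87.7 ± 11.0% in acHKO and 82.8 ± 4.69% in GFP. Its transcripts were under the level needed for a test in the acute model.

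The Celf1 exon of 152 nucleotides (chr2:90987665-90987816, plus strand) holds the start codon of the 513-codon form, with the bases before it in the 5′ UTR. It was included at 43.4, 35.2 and 42.0% in acHKO, against 60.2, 54.8 and 58.7% in GFP, a difference of -17.7 percentage points (SE 2.81, adjusted p = 0.0179). The call was lost without GFP replicate 1 (adjusted p = 0.0649) or GFP replicate 3 (0.0666). The Celf1 exon of 53 nucleotides, in the 5′ UTR, was at 16.0, 12.4 and 19.7% in acHKO, against 8.62, 9.16 and 5.13% in GFP, a difference of 8.40 percentage points (SE 2.28, adjusted p = 0.0676) that did not pass. At 1 month the exon of 152 nucleotides was at 41.0 and 38.2% in HKO and 40.0 and 40.1% in controls, and at P10 at 25.2 and 29.2% in HKO and 32.2 and 34.5% in controls. It was the 1 member exon whose acute effect differed from the 1-month effect by -17.2 percentage points (SE 3.66, adjusted p = 0.0416), where 2.24% of 8029 exons were called. That contrast did not pass with spanning transcripts of at least 1 TPM (adjusted p = 0.0529), on log2 odds (0.0757) or in 8 of the 10 fits without 1 library. Of the Rbfox2 exons, the coding exons of 40 and 43 nucleotides were at 86.6 and 80.7% and 12.0 and 11.5% in 1-month controls, against 76.7 and 76.4% and 18.9 and 15.4% in P10 controls, without a call.

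**Figure D4:**
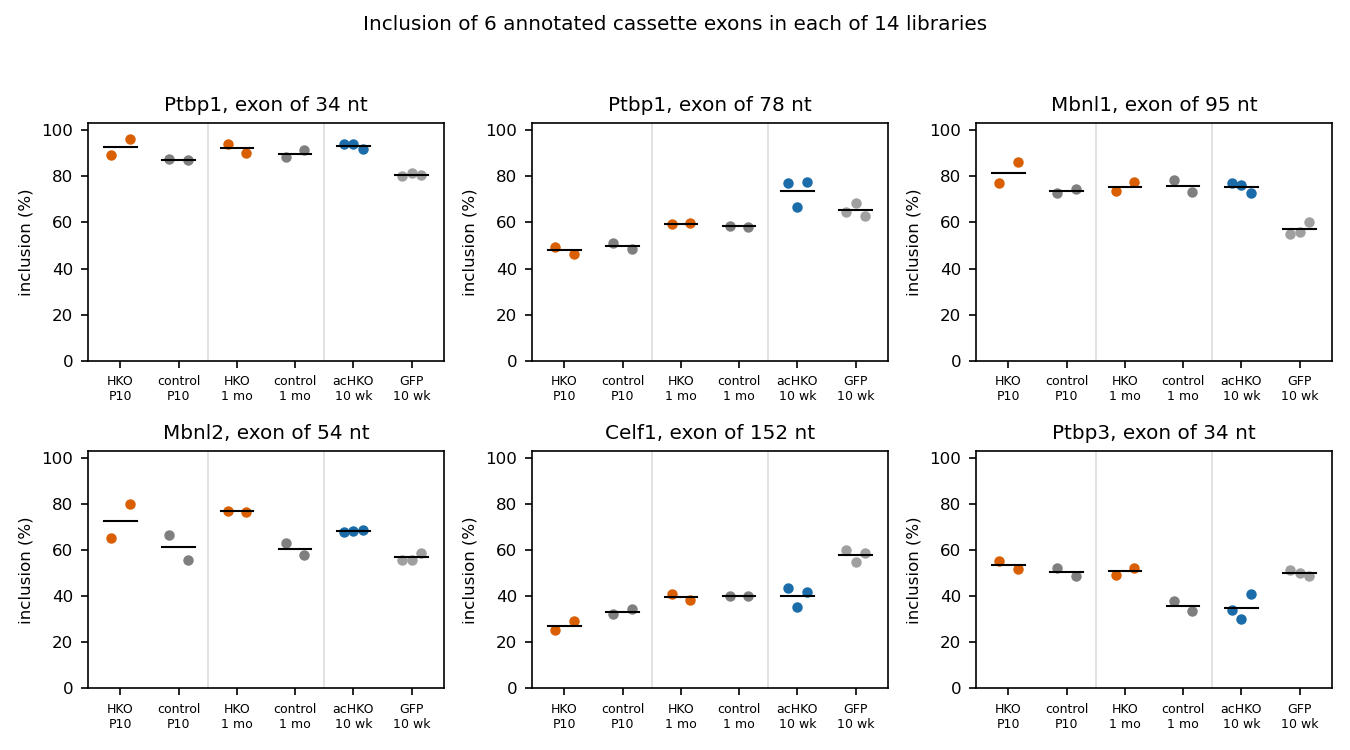
Inclusion (y axis, percent, from 0) of 5 cassette exons of the regulators and 1 of the paralog Ptbp3 in each library; dots are libraries and black bars group means, with HKO or acHKO left of its control. The Mbnl1 exon of 95 nucleotides is at 77.3, 76.5 and 72.6% in acHKO, against 55.1, 56.0 and 60.2% in GFP, and the Celf1 exon of 152 nucleotides at 43.4, 35.2 and 42.0%, against 60.2, 54.8 and 58.7%.

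Of 13 paralogs of the 9 genes, Ptbp3 and Celf2 reached a mean of 1 TPM, while the others, Mbnl3, Celf3, Celf4, Celf5, Celf6, Esrp1, Rbfox1, Rbfox3, Elavl2, Elavl3 and Elavl4, stayed below it. Ptbp3 was at 5.82 ± 0.722 TPM in acHKO and 10.1 ± 2.04 TPM in GFP (SD, n = 3 each; relative log2 change -0.33, adjusted p = 0.0131). It was at 9.86 ± 2.47 TPM in 1-month and 16.5 ± 0.0323 TPM in P10 controls (-0.28, 0.0318); neither passed after rescaling. A Ptbp3 exon of 34 nucleotides (chr4:59546149-59546182, minus strand), near the 5′ end of its gene, was included at 34.1, 30.0 and 40.8% in acHKO, against 51.3, 50.2 and 48.7% in GFP, a difference of -15.1 percentage points (SE 3.00, adjusted p = 0.0306). At 1 month it was at 49.4 and 52.2% in HKO, against 38.0 and 33.8% in controls, a difference of 14.9 percentage points (SE 2.37, adjusted p = 0.16) that did not pass. Its acute and 1-month effects differed by -30.0 percentage points (SE 4.12, adjusted p = 0.00853). Among 41 other splicing regulators, 14 of 33 tested were lower and 1 higher at 1 month than at P10 in controls, where 38.2% of all genes were lower. In acHKO 14 of 32 were lower and 1 higher, where 34.8% of all genes were lower. Of the same genes, 1 was called in HKO at P10 (limma on deposited TPM), where 10.8% of all genes were called higher. At 1 month 0 were called on deposited TPM, where 4.87% of all genes were higher and 1.99% lower. After rescaling 7 were called, all lower, where 7.31% of all genes were lower. After rescaling the developmental split was 5 higher and 4 lower, where 23.3% of all genes were higher and 24.5% lower. The acute split after rescaling was 7 higher and 8 lower, where 1967 of all 9963 genes were higher and 1894 (19.0%) lower. Named by smallest p, the acute changes were Rbm4 (relative log2 change -1.03, adjusted p = 5.41e-05), Sfpq (-0.96, 7.97e-05) and Ybx1 (-0.92, 0.000128). The developmental ones were Tardbp (-0.80, 0.00141), Tia1 (-0.57, 0.00149) and Fubp1 (-0.52, 0.00528). At P10 the 1 called was Srrm4, the microexon activator, higher in HKO (0.60, 0.0082).

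Genes known from other tissues to be spliced by these proteins were counted in the same usage and inclusion tests. In the developmental comparison, 1 of 9 testable ESRP targets, Csnk1d, and 1 of 7 PTBP1 targets, Pkm, changed usage, as did 2.88% of all genes. None of 7 MBNL and 8 RBFOX2 targets was called, and differences between the lists were not tested. Csnk1d, a casein kinase, had Csnk1d-204 at 32.6 ± 2.60% in 1-month and 13.3 ± 2.75% in P10 controls (adjusted p = 0.0333). Pkm, the pyruvate kinase whose exon choice PTB proteins control, had Pkm-201 at 63.7 ± 4.61% in 1-month and 82.3 ± 0.192% in P10 controls (adjusted p = 0.00197), with n = 2 each. In the HKO model none of the 4 lists had a called gene at either age in usage or exon inclusion (limma). After acute deletion usage changed in 3 of 8 ESRP targets, 3 of 4 PTBP1 targets, 3 of 6 MBNL targets and 4 of 6 RBFOX2 targets, where 35.5% of all genes changed. Mbnl1 is on the PTBP1 and MBNL lists, and other genes are on 2 lists as well. Lsr, a lipolysis-stimulated receptor and ESRP target, had Lsr-201 at 16.3 ± 3.90% in acHKO and 34.7 ± 3.24% in GFP (adjusted p = 4.74e-07). Fn1, which encodes fibronectin and is on the MBNL list, had Fn1-202 at 30.2 ± 10.4% in acHKO and 9.91 ± 1.97% in GFP (adjusted p = 4.80e-07). Epb41, a membrane skeleton protein on the RBFOX2 list, had Epb41-202 at 12.9 ± 5.80% in acHKO, while it was listed at 0 in every GFP library (n = 3 each). Tpm1, an actin filament protein, has alternative exons long studied as PTB targets, and its exon of 76 nucleotides at chr9:67031951-67032026 was included at 34.9 ± 3.38% in acHKO and 19.4 ± 1.87% in GFP (adjusted p = 0.0119). The neighbouring Tpm1 exon of the same length, at chr9:67032466-67032541, was at 63.0 ± 4.01% in acHKO and 78.2 ± 1.80% in GFP (adjusted p = 0.0172). Exon inclusion was called in 1 of 7 ESRP, 3 of 4 PTBP1, 4 of 6 MBNL and 3 of 6 RBFOX2 target genes, where 17.2% of all 2623 genes with a testable exon had a call. The MBNL count includes Mbnl1 and Mbnl2 themselves, and the PTBP1 count includes Mbnl1 and Ptbp3, all described above.

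Over the 14 libraries, the genes whose log2(TPM + 1) followed each regulator most closely were, among 5710 protein-coding genes averaging 5 TPM or more, Pip4p2 (0.989), Nras (0.988) and U2surp (0.988) for Ptbp1 (Pearson's r in parentheses). For Rbfox2 they were Itih2 (0.990), Hsf2 (0.987) and Spryd4 (0.987), for Qk Rtcb (0.993), Mrpl9 (0.993) and Ube2z (0.992), and for Elavl1 Sh3glb1 (0.991), Psmd13 (0.988) and Zc3h14 (0.986). For Celf1 they were Cox11 (0.988), Psmb4 (0.984) and Csnk2b (0.983), for Ptbp2 Tmem9 (0.988), Rbm39 (0.982) and Lrpap1 (0.972), and for Esrp2 Tbp (0.963), Slc35d2 (0.957) and Uimc1 (0.956). For Mbnl1 they were Arfgef1 (0.968), Gnl1 (0.963) and Erlec1 (0.952), and for Mbnl2 Lrrc58 (0.945), Dst (0.941) and Zfp445 (0.921). These 14 points share group structure and the scaling of each library, so the r values describe likeness across these samples only.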

How the data were processed

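Per the submitters' processing notes, reads were converted with bcl2fastq 2.17.1.14, quantified with kallisto 0.46.0 and compared with DESeq2; the genome build named is GRCm38 (mm10). The authors deposited 1 table of TPM per transcript for all 14 libraries, each column summing to the same fixed total, so no depth is known. They also deposited 3 comparison tables with a mean normalized count (a signal averaged over libraries), log2 fold changes with their standard error on the same log2 scale, a test score and p-values with adjusted p-values, per the file headers; these were used only where the authors' deposited table is named.

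Gene TPM is the sum over a gene's transcripts. Transcripts were matched by identifier to GENCODE M21 (136468 of 137767), which gave exons and 28380 annotated cassette exons. log2(TPM + 1) was tested with limma 3.58.1 in R 4.3.3 (eBayes with a mean-variance trend, for genes averaging 1 TPM or more); P10 and 1-month libraries shared 1 fit and the acute libraries had their own, and contrasts of the acute with the 1-month effect used all 14 libraries. Usage was tested with diffSplice (transcripts of at least 1 TPM and 5% of the gene) and inclusion with limma (spanning transcripts of at least 5 TPM). All p-values were two-sided, with Benjamini-Hochberg adjustment over everything tested; scripts were tested on simulated data.

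The genes, the gene lists and the tests were chosen with earlier results of these data known. All 9 genes are named; transcripts are named at 10% of the gene or when called, exons when called or included at 10 to 90%, listed genes by smallest p. The exons of Mbnl1 and Mbnl2 printed as pairs, and Tpm1 among the targets, were chosen after their values were seen, as was the test of the acute against the 1-month effect on usage and inclusion. No value column was left unmapped. Replicates of a group correlated at 0.976 to 0.994. Same-numbered libraries did not deviate together in every pair, so the numbers were not used as pairs. Alternatives covered pseudocounts, filters, rescaling, left-out transcripts, the replicate block and each left-out library.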

Additional observations from a re-analysis of the deposited data

Results flagged for a closer look

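The results below stood out because the acute and the 1-month knockout effect differed in a test of the difference itself, over all 14 libraries, with limma and Benjamini-Hochberg adjustment. For a transcript, that test was of log2(transcript TPM + 1) against the other tested transcripts of its gene, not of the share in points. The share of Celf1-205 had an acute effect 26.8 percentage points above the 1-month effect (adjusted p = 0.0106). The call was lost without control replicate 1 at 1 month (adjusted p = 0.129), HKO replicate 2 at 1 month (0.164) or GFP replicate 2 (0.0796). The share of Ptbp1-213 differed by 15.6 points (adjusted p = 0.0224), with 15.3 and 8.71% in HKO and 26.7 and 11.3% in controls at 1 month. Without control replicate 1 the difference was 7.87 points (adjusted p = 0.35), and the call was also lost without HKO replicate 2 at 1 month (0.204) or acHKO replicate 2 (0.0712). Inclusion of the Celf1 exon of 152 nucleotides differed by -17.2 points (adjusted p = 0.0416); the difference was -18.8 to -14.7 points when single libraries were left out, and the call was lost in 8 of those 10 fits, with spanning transcripts of at least 1 TPM (0.0529) and on log2 odds (0.0757). The models also differ in age, line and virus, which cannot be told apart from the time since deletion.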

How the results depend on the processing

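Members called in development were 4, 3 without a filter on low values, 6 without mitochondrially encoded genes, 2 with protein_coding transcripts alone and 2 to 4 without single libraries. In HKO at P10 they were 1, 0 with a pseudocount of 0.1, 0 without a filter on low values, 0 with protein_coding transcripts alone, 0 with all 14 libraries in 1 fit, 3 without mitochondrially encoded genes and 0 without single libraries. In HKO at 1 month they were 0, 1 after rescaling, 1 without mitochondrially encoded genes and 0 to 1 without single libraries. In acHKO they were 5, 2 without the filter, 1 after rescaling, 1 without mitochondrially encoded genes and 3 to 8 without single libraries. Members called in usage in development were 1, 2 at 0.5 TPM with no minimum share, 0 at 10% of the gene and 0 without single libraries. In acHKO they were 4, 5 at 0.5 TPM with no minimum share, 5 with a pseudocount of 0.1 and 3 to 5 without single libraries. Member exons called in acHKO were 4, and 3 to 6 without single libraries. For HKO against control, no member gene was called in usage and no member exon in inclusion in any alternative run; 1 transcript, Celf1-205, was called at P10 without HKO replicate 1 (adjusted p = 0.00887).

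All genes called were 5194 in development (2634 at a mean of 5 TPM, 3055 to 4638 without single libraries). They were 1488 in HKO at P10 (932 with a pseudocount of 0.1, 2236 without the filter, 805 at 5 TPM, 3582 without mitochondrially encoded genes, 562 to 896 without single libraries). They were 805 in HKO at 1 month (391 without the filter, 1888 rescaled, 2856 without mitochondrially encoded genes, 613 to 1344 without single libraries) and 4058 in acHKO (2658 at 5 TPM, 1983 without mitochondrially encoded genes, 2801 to 5188 without single libraries). Usage calls were 123 in development (295 at 0.5 TPM, 23 to 116 without single libraries), 25 at P10 (67; 8 to 26) and 10 at 1 month (46; 3 at 10% of the gene; 17 with a pseudocount of 0.1; 9 to 23). Exon calls were 7 in development (25 at 1 TPM, 122 on log2 odds, 2 to 22 without single libraries), 2 at P10 (7, 12, 0 to 20), 3 at 1 month (11, 11, 7 to 62) and 659 in acHKO (1103 at 1 TPM, 396 to 601 without single libraries).

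Same-numbered libraries correlated at -0.0464 to 0.278 in their deviations from the group mean, the lowest value being between controls of the 2 ages. With 2 libraries a group the deviations mirror each other, so this check cannot settle whether the numbers pair the samples. The replicate number was also fitted as a replicate block. The block gave 0 members called in usage in development, 21, 0, 0 and 302 exons called in development, at P10, at 1 month and in acHKO. It lost the acute calls of Celf1, Mbnl1-214 and the Mbnl1 exon of 95 nucleotides (adjusted p = 0.12, 0.113 and 0.0696) and the acute against 1-month contrast of the Celf1 exon of 152 nucleotides (0.081). No value of a called member changed sign in an alternative; 52 of 978 gene-level values did where neither fit called them. The causes were not tested. With 2 or 3 libraries a group and no depth in TPM, small changes of these regulators were not detectable here.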
